A study of Mus musculus with 3 samples.

Results

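The regions described here were the CpG islands with the strongest H3K27me3 signal on every array of a study of mouse colonic epithelium. Autosomal array probes were joined into a region while the next probe started within 500 bp, and regions of 3 or more probes took the median log2 ratio of immunoprecipitate over input. A region was a member when this value stood at or above percentile 90 among the regions of the same array on all 3 arrays. The rule kept 1029 of 13729 regions (7.5%), which held 7967 of 93029 probes. The members were thus chosen by these log2 ratios, so their height is a description and carries no test.

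H3K27me3 was immunoprecipitated from crosslinked, sonicated crypts of male Balb/c mice and hybridised to a 2-colour Agilent tiling array of CpG islands, with the immunoprecipitate in Cy5 and whole-cell extract, the input, in Cy3. All animals were of the same strain and sex, and each group was a single array made from a pool of 3 mice. The groups were untreated mice of 7 weeks, untreated mice of 23 weeks, and mice of 23 weeks that had received 2% dextran sulfate sodium (DSS), a polymer that injures the colonic epithelium and causes colitis, for 1 week from the age of 7 weeks. No group had a replicate, so no p-value is given, differences between arrays have no replicate check, and pool, slide and group cannot be told apart. Crypt isolation enriches epithelium, but no RNA was measured, and the cell type was not checked against marker genes here.

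H3K27me3 is laid down by Polycomb repressive complex 2, whose catalytic subunit EZH2 or EZH1 methylates lysine 27 of histone H3, and it is bound by chromobox proteins of Polycomb repressive complex 1. In mammals the complexes gather at unmethylated CpG islands, above all those of developmental regulators such as homeobox transcription factors, which the mark helps to keep silent in tissues that do not use them. In the intestinal epithelium Polycomb activity is known to hold back genes of other lineages in stem and progenitor cells of the crypt. The array files give positions without gene names or a genome build, so regions are named by the chromosome, start and end that the files state, and whether they lie in exons, introns or promoters is not given.

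The members stood well above the typical probe on each array. All values below are log2 ratios with the array's median autosomal probe set to 0, and 3 values in a row stand for the 7-week, the untreated 23-week and the DSS array. The members' median was 2.15 on the 7-week array (lowest 1.63, highest 4.05), 2.48 on the untreated 23-week array (2.04 to 4.16) and 1.60 on the DSS array (1.20 to 2.91). These medians correspond to 4.44-fold, 5.58-fold and 3.03-fold enrichment over the median probe, while the median of all regions lay below it at -0.27, -0.40 and -0.22. The same percentile therefore stood for different heights, since percentile 90 lay at 1.63, 2.04 and 1.20. The arrays also differed in range, with an interquartile range of probe ratios of 1.98, 2.56 and 1.56, and expressed in units of that range the members' medians were close, at 1.09, 0.97 and 1.02.

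**Figure D1:**
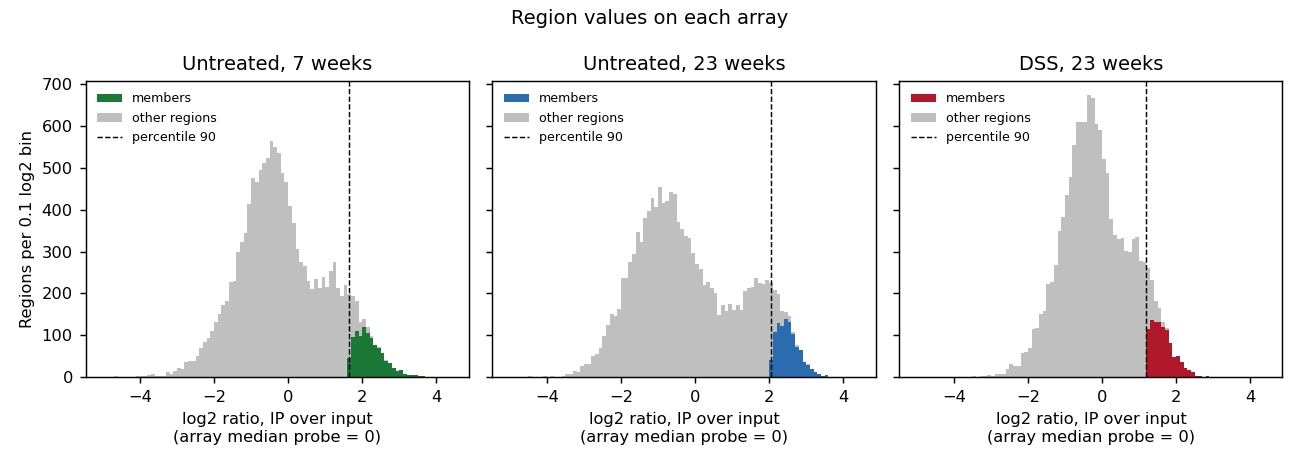
Stacked histograms of the log2 ratio of immunoprecipitate over input (x axis, array median probe at 0) for all 13729 regions on each array, with members in colour, other regions in grey and percentile 90 as a dashed line; the y axis counts regions per bin. The members' median was 2.15 on the 7-week array, 2.48 on the untreated 23-week array and 1.60 on the DSS array, and grey regions right of the line passed on that array but not on all 3.

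Most regions at the top of one array were at the top of all 3. At percentile 90 each array held 1373 regions, of which 74.9% were members. A further 318 regions passed on 2 arrays and 396 on 1 array, so the members were 59% of the 1743 regions that passed anywhere. Among the regions that missed on 1 array, 88 missed on the 7-week array, 95 on the untreated 23-week array and 135 on the DSS array, with median percentiles of 88.5, 88.6 and 87.8 on the array they missed. Most of them thus lay close under the threshold. The members' own percentile varied by a median of 2.14 points over the 3 arrays (at most 8.79), and the lowest of the 3 fell on the 7-week array for 314 members, on the untreated 23-week array for 343 and on the DSS array for 372.

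The border of the group was not a gap in the data. Between percentile 90 and 91 on their lowest array lay 118 members, with medians of 1.78, 2.18 and 1.27 (7 weeks, untreated 23 weeks, DSS). Just outside, between percentile 89 and 90, lay 129 regions with 1.71, 2.08 and 1.24. The member nearest the border, chr4:153645854-153646365 (5 probes), had 1.63 on the 7-week array, 2.19 on the untreated 23-week array and 1.23 on the DSS array. The nearest region outside, chr1:89095266-89096082 (8 probes), had 1.69, 2.05 and 1.20 and missed on the DSS array at percentile 89.99. The other 3 members nearest the border were chr14:117109672-117109989, chr12:104875511-104875821 and chr2:31709135-31709573, and the other 3 regions just outside were chr5:37156589-37158561, chr5:131901265-131901495 and chr19:45790223-45790669. On their lowest array these 8 stood between percentile 89.96 and 90.03. At the other end, 460 members stood at or above percentile 95 on all 3 arrays and 75 at or above percentile 99.

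Most single probes of the members were high, which the rule favours, since it chose members by the median of these same probes. Of the 7967 member probes, 99.3% lay above the array's median probe on the 7-week array, 99.9% on the untreated 23-week array and 99% on the DSS array, against 50.1%, 50% and 50.1% of all region probes. Every probe was above the median in 977, 1025 and 954 of the 1029 members. Probes of a member still differed from each other, with a median SD within a region of 0.85 on the 7-week array, 0.62 on the untreated 23-week array and 0.66 on the DSS array. Much of that scatter recurred from array to array: a probe's deviation from its region's median correlated at r = 0.91 between the untreated arrays, 0.88 between the arrays of 23 weeks and 0.92 between the 7-week and DSS arrays (7967 probes of shared sequence, a description over probes). The SD of the probe-by-probe difference between arrays was accordingly smaller, with a median of 0.35, 0.29 and 0.32 for those pairs.

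Repeated spots of one probe differed less than the probes of a member did. Control probes printed 12 to 14 times and well above background on all their spots had a median SD of the log2 ratio of 0.11 on the 7-week array (16 control probes), 0.22 on the untreated 23-week array (9) and 0.10 on the DSS array (13). The error that the scanner software gave each member probe had a median of 0.29, 0.31 and 0.26 in log2 units. No member probe was saturated. In the immunoprecipitate channel, at most 1 member probe per array scored as not well above background, which the rule favours. An outlier flag was carried by 69 of 7967 member probes on the untreated 23-week array and by 0 on the others. With probes outside the members counted as well, 561 of 93029 region probes were flagged on that array, 2 on the 7-week array and 7 on the DSS array. The flags thus went with the untreated 23-week array and were not confined to members, although a somewhat larger share of member probes than of all region probes carried one.

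Members were bright in the immunoprecipitate channel, and slightly so in the input. With the median probe of each array at 0, their median log2 immunoprecipitate intensity was 2.27 ± 0.79 on the 7-week array, 2.86 ± 0.70 on the untreated 23-week array and 1.78 ± 0.72 on the DSS array (SD over members), against -0.47, -0.56 and -0.37 in the other regions. Their input was at 0.20 ± 0.63, 0.37 ± 0.52 and 0.26 ± 0.68 against -0.02, -0.03 and -0.02. Only 40, 15 and 38 members were among the 10% of regions with the dimmest input. Ranked by immunoprecipitate intensity alone, 642 (62.4%), 751 (73%) and 557 (54.1%) members were in the top 10% of regions. The rule used the ratio of these same 2 channels and so favours a bright immunoprecipitate and a dim input. The intensities and ranks are therefore a description.

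The strongest members were short islands on several chromosomes. Of members with 4 or more probes, the one with the highest lowest percentile was chr4:43652499-43653003 (505 bp, 4 probes). It had 4.05 ± 1.98 on the 7-week array, 4.16 ± 1.65 on the untreated 23-week array and 2.89 ± 1.45 on the DSS array (SD over its probes). It ranked first on both untreated arrays, its 4 probes differed widely, and its nearest fellow member lay 1071 kb away. The next, chr2:35916131-35916505 (4 probes), had 3.56 ± 0.70, 3.67 ± 0.42 and 2.91 ± 0.68, the highest value on the DSS array. In chr7:49504359-49504971 (6 probes) the values were 3.53 ± 0.85, 3.44 ± 0.52 and 2.62 ± 0.79. These regions were high on all 3 arrays, and the spread over their own probes differed more than their height.

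A second region of chromosome 4, chr4:124492305-124492596 (4 probes), had 3.50 ± 0.38, 3.36 ± 0.38 and 2.72 ± 0.24. On chromosome 1, chr1:38571316-38571687 (4 probes) had 3.38 ± 1.42, 3.53 ± 1.34 and 2.52 ± 1.17. Its SD was smaller than that of the leading region on each array but larger than that of chr4:124492305-124492596. The median of so few probes is thus less certain there than in chr4:124492305-124492596. The longest of these leading regions, chr5:140160346-140161853 (12 probes, 1508 bp), had 3.63 ± 1.74 on the 7-week array, 3.39 ± 1.06 on the untreated 23-week array and 2.46 ± 1.16 on the DSS array.

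The remaining 6 of the 12 leading regions were chr2:38178630-38179156, chr2:164640328-164641067, chr7:30859169-30859672, chr15:102755171-102755614, chr13:55837876-55838499 and chr1:78079798-78080496, with 4 to 7 probes each. Their values ran from 3.23 to 3.48 on the 7-week array, from 3.24 to 3.72 on the untreated 23-week array and from 2.40 to 2.88 on the DSS array. The region of chromosome 15 was the highest of these after DSS (2.88 ± 0.55) and the lowest on the 7-week array (3.23 ± 0.77). Of the 12, 9 lay within 20 kb of another member. The other 3, chr4:43652499-43653003, chr7:30859169-30859672 and chr1:78079798-78080496, had their nearest fellow member at 1071 kb, 98 kb and 2710 kb.

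Long islands were members more often than short ones, a property the rule did not use apart from its minimum of 3 probes. Among 523 regions with 15 or more probes, 101 were members (19.3%, Wilson 95% interval 16.2% to 22.9%), against 928 of 13206 shorter regions (7.03%, 6.6% to 7.48%). The intervals cover counting error only and take regions as independent. The share did not climb steadily with size: it was 7.35% at 3 probes and 6.07% at 7 to 9, then 9.3% at 10 to 14, 18.7% at 15 to 19 and 20.8% at 20 or more. Each array alone gave the same order at the top, with 24.9%, 25.7% and 22.2% of regions of 15 to 19 probes at or above percentile 90 on the 7-week array, on the untreated 23-week array and on the DSS array. The median member had 6 probes and 689 bp, and the median region 6 probes and 665 bp.

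The 6 members with most probes were long islands of moderate height for the group. The largest was chr8:95244736-95250031 (41 probes, 5296 bp), with 1.81 ± 1.07 on the 7-week array, 2.32 ± 0.77 on the untreated 23-week array and 1.36 ± 0.76 on the DSS array. Next came chr5:33747202-33752451 (40 probes), with 2.06 ± 1.03, 2.49 ± 0.76 and 1.55 ± 0.81. The others were chr5:111656748-111660873 and chr14:20773443-20778326 with 37 probes each, chr1:180363992-180367637 with 32 and chr11:33100508-33104401 with 30. All 6 had their nearest fellow member more than 100 kb away, the closest at 104.6 kb from chr5:33747202-33752451. Among the 75 members at or above percentile 99 only 1 had 15 or more probes, against 31 of the 240 between percentile 90 and 92. A median over few probes varies more than one over many, so extreme values are reached more easily by short regions. How far this enters these counts was not tested.

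**Figure D2:**
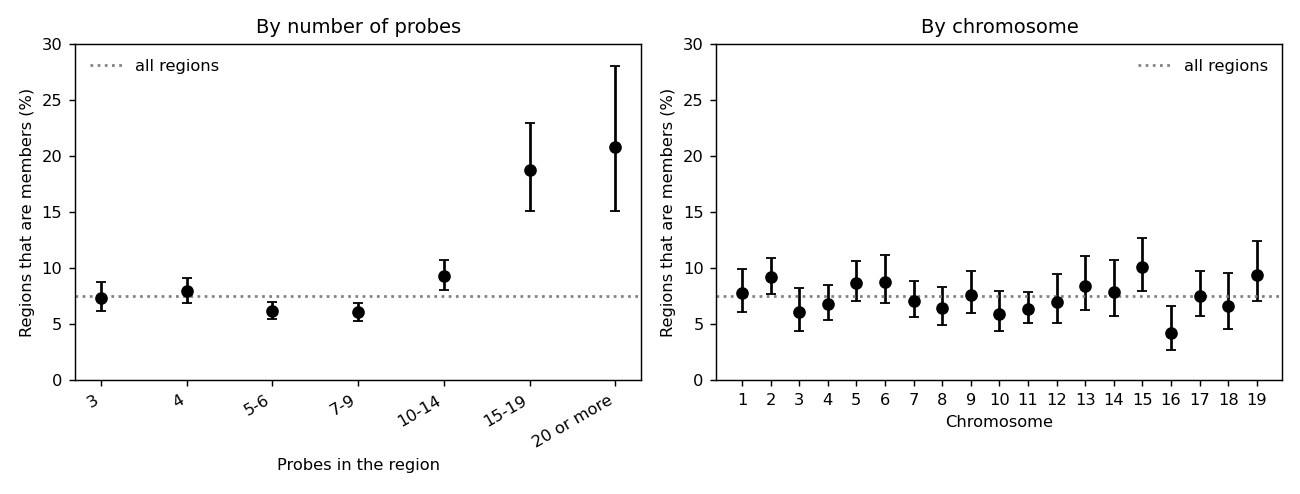
Share of regions that were members (y axis, percent, with Wilson 95% intervals) by the number of probes in the region (left) and by chromosome (right); the dotted line is the 7.5% over all regions. The share was 18.7% at 15 to 19 probes and 20.8% at 20 or more, and chromosomes ran from 4.24% on 16 to 10.1% on 15.

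Members occurred on every autosome. Chromosome 2 held the most, 108 of 1179 regions (9.16%, 7.64% to 10.9%). The highest share was on chromosome 15, with 63 of 626 (10.1%, 7.95% to 12.7%), and the lowest on chromosome 16, with 18 of 425 (4.24%, 2.7% to 6.59%). On these 3 of 19 chromosomes the interval left out the overall 7.5%. Neighbouring members are not independent draws, so these intervals are too narrow.

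Members lay close together far more often than other regions lay close to members. Another member was found within 20 kb of 394 of 1029 members (38.3%, Wilson 95% interval 35.4% to 41.3%), and a member within 20 kb of 649 of 12700 other regions (5.11%, 4.74% to 5.51%). Part of this goes with the layout of the array, since 66.9% of members and 41% of other regions had any region within 20 kb. Among regions with such a neighbour, a member was that close for 57.3% of 688 members (53.5% to 60.9%) and 12.5% of 5204 other regions (11.6% to 13.4%). Clusters of 4 or more members contributed some of it, and without their 88 members the first share was 32.5% (29.6% to 35.6%). Close neighbours were most frequent for the strongest members: a fellow member within 20 kb was found for 33.3% of members between percentile 90 and 92 on their lowest array, and for 58.7% of the 75 at or above percentile 99 (47.4% to 69.1%). Any region at all lay within 20 kb of 61.3% and 82.7% of these members. Neighbouring members count for each other, so the intervals of these shares are too narrow.

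The share of members was about level up to 5 kb from another member and lower beyond. Of the regions whose nearest other member lay within 1 kb, 46.4% were members themselves (64 of 138, Wilson 95% interval 38.3% to 54.7%). At 1 to 2 kb 54.4% were (81 of 149, 46.4% to 62.2%) and at 2 to 5 kb 51% (130 of 255, 44.9% to 57.1%). These 3 intervals overlap, but they take regions as independent, whereas neighbouring members count for each other, so they are too narrow. The share was 35% at 5 to 10 kb, 15.9% at 10 to 20 kb and 9.02% at 20 to 50 kb, and then stayed between 4.51% and 5.44% from 50 kb on. Regions that were no members were also higher near members: within 1 kb of a member their median was 1.29 on the 7-week array, 1.78 on the untreated 23-week array and 0.91 on the DSS array (74 regions), whereas beyond 500 kb it was -0.39, -0.57 and -0.32 (6945 regions). These shares and medians describe neighbouring DNA in the same 3 hybridisations.

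Probes that the rule had left out were higher near members as well. A total of 1470 autosomal probes stood in runs of fewer than 3 and entered no region. The 56 of them within 5 kb of a member had medians of 1.76 on the 7-week array, 2.29 on the untreated 23-week array and 1.38 on the DSS array, below the members' medians of 2.15, 2.48 and 1.60. At 5 to 20 kb (44 probes) the medians were 0.60, 0.79 and 0.43, and beyond 100 kb (1224 probes) -0.45, -0.34 and -0.33. A ratio of at least 2-fold over the median probe was found at 78.6%, 94.6% and 67.9% of the nearest probes and at 11.8%, 16.7% and 7.52% of the farthest. These probes had no part in choosing the members, but they were on the same arrays.

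**Figure D3:**
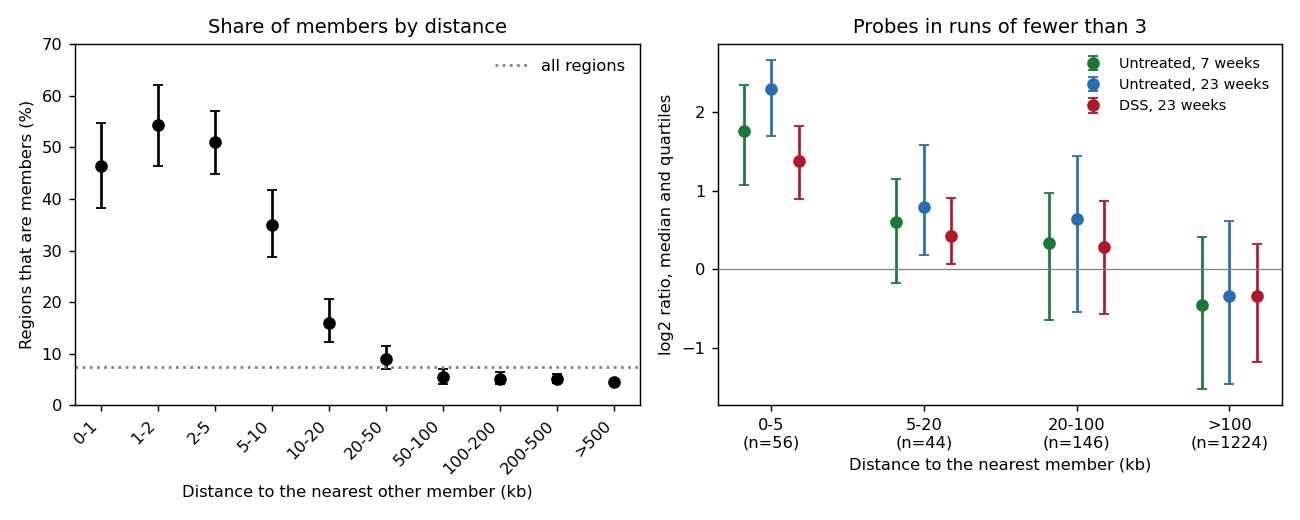
Left, share of regions that were members (percent, Wilson 95% intervals) by distance to the nearest other member in kb, with the 7.5% over all regions dotted; right, log2 ratios (median and quartiles) of probes outside all regions by distance to the nearest member, in colour by array. The share was 46.4% within 1 kb, 54.4% at 1 to 2 kb, 51% at 2 to 5 kb and 4.51% beyond 500 kb, and the probes' medians on the 7-week array from 1.76 within 5 kb to -0.45 beyond 100 kb.

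Joined over gaps of up to 20 kb, the members formed 790 groups: 635 stood alone, 102 groups held 2, 34 held 3, and 19 held 4 or more. The group with most members, 8 of 10 regions, spanned chr15:102749463-102810397. Its members had medians of 2.24 on the 7-week array (1.82 to 3.23), 2.55 on the untreated 23-week array (2.22 to 3.43) and 1.68 on the DSS array (1.31 to 2.88). Within it, chr15:102755171-102755614, chr15:102782285-102783403 and chr15:102794450-102794728 stood highest, with 2.88, 2.54 and 2.49 after DSS. The 2 regions inside that were no members were chr15:102762876-102763216, with 1.44, 1.56 and 0.93, and chr15:102795294-102795767, which missed on the DSS array alone at percentile 89.2. High and moderate islands alternated along this stretch, although even its lowest region stood at percentile 82.1 or above on every array.

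On chromosome 2, all 7 regions between 74528074 and 74564736 were members, with medians of 2.34, 2.60 and 1.73. Of these, chr2:74533493-74533944 had 2.97 ± 0.76 on the 7-week array, 3.21 ± 0.52 on the untreated 23-week array and 2.63 ± 0.59 on the DSS array. Another stretch of chromosome 2, from 105460778 to 105483309, held 5 regions, all members, with medians of 2.48, 2.57 and 1.90. Its 17-probe island chr2:105475465-105477624 had 2.13 ± 1.00, 2.57 ± 0.76 and 1.40 ± 0.80, lower after DSS than the other 4. All 5 regions were also members between 98604263 and 98634197 on chromosome 15 (2.37, 2.61 and 1.63) and between 129191691 and 129211019 on chromosome 3 (2.41, 2.63 and 1.74). In the stretch from 44770638 to 44812736 on chromosome 19, 5 of 8 regions were members, with 2.29, 2.66 and 1.86, and the other 3 had medians of 1.39, 2.17 and 1.24.

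Regions enclosed by members were mostly marked too. Inside the groups of 2 or more members lay 43 regions that were no members, with medians of 1.42 on the 7-week array, 1.88 on the untreated 23-week array and 1.11 on the DSS array. Of the 43, 36, 39 and 27 were at least 2-fold above the median probe, shares of 83.7%, 90.7% and 62.8%, where 14%, 19.5% and 7.04% of all regions that were no members reached that level. None on the 7-week array and 1 on each of the other arrays lay at or below the median probe.

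Members in groups were somewhat higher on all 3 arrays than members standing alone. Members in groups of 2 or more had medians of 2.21 ± 0.42, 2.54 ± 0.33 and 1.67 ± 0.34, and those standing alone had 2.11 ± 0.38, 2.45 ± 0.29 and 1.57 ± 0.29 (SD over 394 and 635 members). Their median lowest percentile was 95.1 in groups and 94.1 alone. Adjacent members resembled each other no more than distant ones did in exact height. Over 152 pairs of adjacent members within 5 kb the mean of the 3 arrays correlated at r = -0.02, and the median difference in height was 0.27, as it was over 288 pairs 100 to 1000 kb apart (0.27, r = -0.03). The rule admits only the top of the range, which limits such a correlation.

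H3K27me3 stayed level from the ends to the centre of members. In the 723 members of 5 or more probes, the outermost 10% of the length at each end had a median of 2.08 on the 7-week array and the centre 2.17. In untreated mice at 23 weeks these were 2.43 and 2.48, and after DSS 1.60 and 1.59. Other regions of that size were lower at their ends, with -0.55 against 0.04 on the 7-week array, -0.70 against 0.03 on the untreated 23-week array and -0.46 against 0.04 on the DSS array (9035 regions). The median over inner probes exceeded the mean of the 2 end probes in 51.6%, 51.6% and 45% of these members, and in 70.7%, 65.1% and 69.8% of the other regions. The members were picked by the median over all these probes, end probes included, so the contrast is a description.

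**Figure D4:**
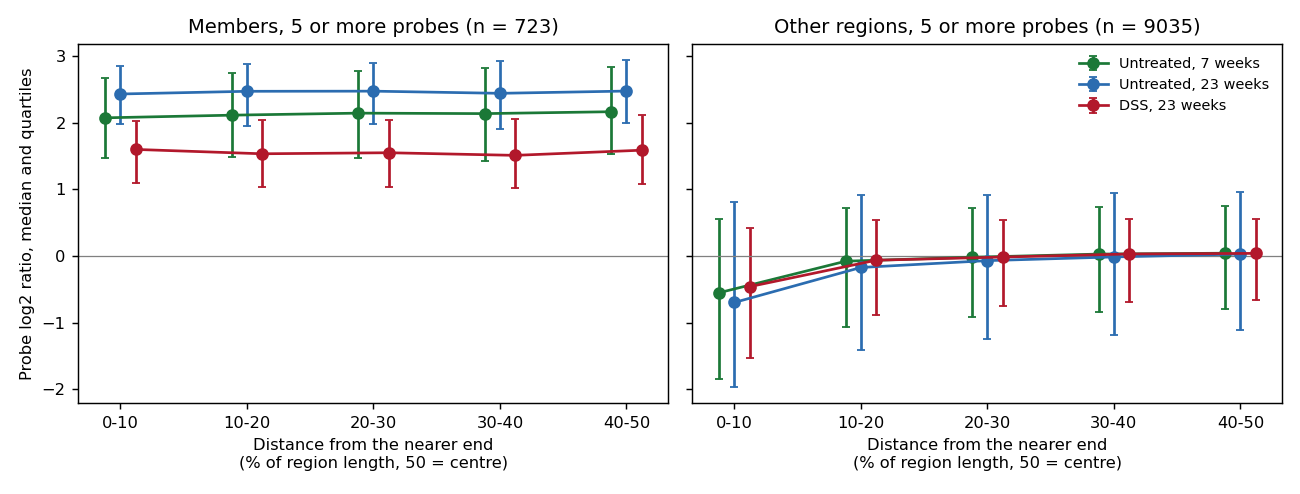
Probe log2 ratios (y axis, median with quartiles) by distance from the nearer end of the region (x axis, percent of region length, 50 at the centre) in members (left) and other regions (right) with 5 or more probes, in colour by array. Members were level, with 2.08 at the ends and 2.17 at the centre on the 7-week array, while other regions went from -0.55 to 0.04.

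Differences between the arrays in the members ran in the order of the arrays' ranges: highest in untreated mice of 23 weeks and lowest after DSS. A region's difference is the median over its probes of their differences, with the SD over probes where 1 region is given. Between untreated mice of 23 and 7 weeks, the median difference over members was 0.28 ± 0.20 (SD over members), and 959 of 1029 were higher at 23 weeks. Over all regions the median was 0.04 ± 0.33. High regions outside the group were higher at 23 weeks as well. The 344 regions at or above percentile 90 on the 7-week array that were no members had a median of 1.77 there. On the untreated 23-week array their median was 2.00. Only 1 member was at least 2-fold higher at 23 weeks (0.0972%, against 0.168% of all regions) and 0 were 2-fold lower (0.233% of all regions). Scaling all arrays to one interquartile range turned the members' difference to -0.26, with 5 members then 2-fold lower (0.0801% of all regions) and 0 higher (0.634% of all regions). With normexp background correction it was -0.09 and with loess -0.21, so its direction depended on the normalization.

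By the median of probe differences, the member with the largest increase was chr10:79707835-79708202 (4 probes), at 1.05 ± 0.52 between the untreated arrays (0.49 after scaling). Its values were 1.73 ± 0.34 on the 7-week array, 2.52 ± 0.63 on the untreated 23-week array and 1.25 ± 0.32 on the DSS array. In chr12:25269601-25270247 (5 probes) this difference was 0.95 ± 0.35, in chr4:152925026-152925378 (4 probes) 0.81 ± 0.74, in chr13:40739244-40739824 (5 probes) 0.81 ± 0.25 and in chr16:35073992-35074338 (4 probes) 0.77 ± 0.55. The region values of chr4:152925026-152925378, 1.78 on the 7-week array and 2.91 on the untreated 23-week array, lay further apart than those of chr10:79707835-79708202. All probes were higher in these 5 regions. After scaling, the differences ran from 0.00 to 0.49. Only 3 members with 4 or more probes had at least 80% of their probes lower at 23 weeks: chr17:33872620-33873316 (-0.44 ± 1.09), chr7:16103093-16103557 (-0.20 ± 0.18) and chr2:152318485-152319025 (-0.10 ± 0.30). The region value of chr2:152318485-152319025 nevertheless went the other way, with 2.63 on the 7-week array and 2.91 on the untreated 23-week array. In that region 4 of 5 probes were lower at 23 weeks.

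After DSS every member was lower than in untreated mice of the same age before scaling. The median difference was -0.83 ± 0.18, from -1.62 to -0.17, and in 1009 members (98.1%) every single probe was lower, as in 28.9% of all regions. At least 2-fold lower were 169 members (16.4%), where 3.65% of all regions were, and 0 were 2-fold higher (1.16% of all regions). The median over all regions was 0.01 ± 0.53. High regions in general shared the shift, however: sorted by the 7-week array, which is outside this comparison, regions between percentile 75 and 90 differed by a median of -0.71, those between 90 and 95 by -0.81 and those from 99 up by -0.88. The 344 regions at or above percentile 90 on the 7-week array that were no members had -0.83 ± 0.31, as the members had. The shift was thus not particular to the members.

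Scaled to a common interquartile range, the members were slightly higher after DSS, with a median difference of 0.14 ± 0.25, 758 higher and 271 lower, and none past 2-fold in either direction (1.41% of all regions were then 2-fold lower and 0.146% 2-fold higher). Loess gave -0.06 and normexp -0.52. Over all regions the scaled median was -0.09. It rose with height on the 7-week array, from -0.12 between percentile 75 and 90 to 0.004 between 90 and 95. Between percentile 95 and 99 it was 0.13, and from 99 up 0.33. Scaling removes a difference in range whatever its source, and a general loss of the mark after DSS and a narrower array cannot be told apart. On every chromosome the unscaled median difference lay between -0.92 and -0.78, with no chromosome apart from the others.

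**Figure D5:**
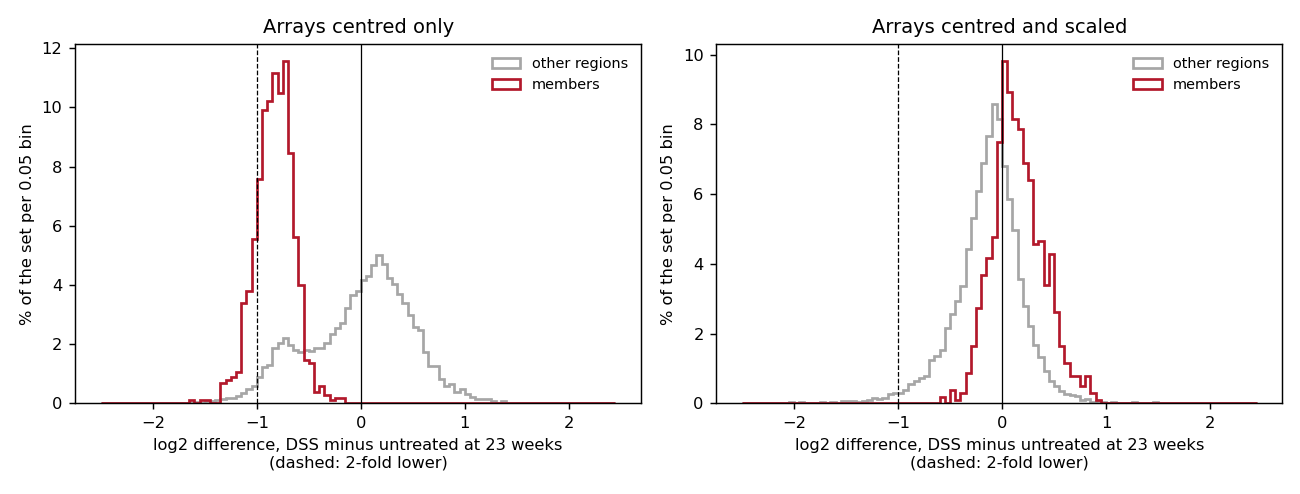
Distribution of the log2 difference between DSS-treated and untreated mice of 23 weeks (x axis; y axis, percent of each set per bin) over members (red) and other regions (grey), with the arrays centred only (left) or also scaled to a common interquartile range (right). All members lay below 0 on the left, around -0.83, and around 0.14 on the right; the second, smaller grey peak on the left shows other regions with the same shift.

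The largest unscaled decreases after DSS are given for members with 4 or more probes. They were in chr2:123781310-123782254 (8 probes), chr5:82095897-82096474 (5), chr11:107610039-107610777 (7), chr7:45044102-45044703 (4) and chr4:124488550-124489554 (7). The first had 2.53 ± 1.21 on the 7-week array, 3.09 ± 0.77 on the untreated 23-week array and 1.59 ± 0.80 on the DSS array, and its probes' median difference, DSS minus untreated, was -1.62 ± 0.19 (-0.49 after scaling). In chr5:82095897-82096474 the values were 3.65 ± 0.74, 3.51 ± 0.56 and 2.12 ± 0.50, a difference of -1.48 ± 0.22 (-0.11 after scaling), and DSS minus the 7-week array was -1.53 ± 0.32 (-1.04 after scaling). The region on chromosome 11 had 2.41 ± 0.87, 2.84 ± 0.79 and 1.33 ± 0.65 and a difference of -1.35 ± 0.37 (-0.50 after scaling). Those on chromosomes 7 and 4 differed by -1.32 ± 0.67 and -1.32 ± 0.46, and by 0.09 and -0.05 after scaling. All of them remained in the top 10% of the DSS array, as the rule required.

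No member with 4 or more probes had 80% of its probes higher after DSS. The 5 members of that size with the least negative median of probe differences are therefore given, picked after their values were seen. In chr17:29049121-29049507 (4 probes) the value was 2.48 ± 0.60 on the 7-week array, 2.15 ± 0.32 on the untreated 23-week array and 1.93 ± 0.25 on the DSS array, and its probes' median difference, DSS minus untreated, was -0.17 ± 0.10 (0.82 after scaling). In chr7:16103093-16103557 (5 probes) it was 2.34 ± 0.37, 2.29 ± 0.47 and 1.81 ± 0.41, a difference of -0.19 ± 0.19 (0.75 after scaling). In chr7:4654491-4655002 (5 probes) it was 2.00 ± 0.91, 2.18 ± 0.87 and 1.99 ± 0.79, a difference of -0.29 ± 0.14 (0.84 after scaling). In chr11:57643639-57644442 (6 probes) the difference was -0.34 ± 0.28 (0.66 after scaling), and in chr16:18499733-18500860 (8 probes) -0.35 ± 0.53 (0.30 after scaling). In the order named, their percentiles were 91.8, 93.8, 92.2, 90.4 and 92.7 on the untreated 23-week array and 98.7, 98.1, 98.9, 97.8 and 91.9 on the DSS array, so 4 ranked higher after DSS and the region of chromosome 16 slightly lower.

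Against untreated mice of 7 weeks, which share the DSS array with the comparison above and differ in age as well, the median difference over members was -0.54 ± 0.22, with 1026 lower and 3 higher. At least 2-fold lower were 28 members (2.72%, against 0.663% of all regions) and 0 were 2-fold higher (0.306% of all regions). After scaling the median was -0.13, with 3 members 2-fold lower (0.444% of all regions) and 0 2-fold higher (0.291%). The members' difference stayed negative under all alternatives tried, from -0.60 to -0.13. Over all regions the median was -0.008 before scaling and -0.078 after it, so part of the scaled -0.13 was shared by regions at large. The interquartile ranges of the 7-week and DSS arrays also differed, at 1.98 and 1.56.

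The authors' deposited table of ratios, made from the same hybridisations, placed the members high as well. Their median percentile in it was 96 on the 7-week array, 96 on the untreated 23-week array and 95.9 on the DSS array, and 888 of 1029 (86.3%) stood at or above percentile 90 on all 3 arrays. All 1029 stood at or above percentile 75, with a lowest value of 78.4. Among the other ways of making the ratios, loess, which fits the ratio against intensity, moved the choice of members most: with it 887 regions passed, and 638 of the 1029 members (62%) were among them. With probes filtered for flags and background, 985 members (95.7%) overlapped a region that passed, and with normexp 990 (96.2%).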

How the data were processed

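The authors extracted spot intensities with Agilent Feature Extraction, 10.7.3.1 in the file headers but 9.1 per the submitters' processing notes. The deposited processed intensity was background-subtracted and multiplied by a linear dye factor, as the file headers record. The same software wrote the deposited log10 ratio with its error score, and 0 or 1 flags per spot. How the authors made the deposited linear ratio table, whose median is 1 on each array, and the genome build are not given in the sources used here.

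From 94499 autosomal probes, log2 of red over green processed intensity had the median of its array subtracted, without loess or quantile normalization. A percentile is the rank divided by the number of regions. A difference is the median over a region of probe differences. Called means past 2-fold. Scaling set each array's interquartile range to their mean. Precision is limited by the number of arrays, 1 per group. Sequences are not shown. Named regions follow a rule: the 12 highest lowest percentiles and the 5 largest differences each way (4 or more probes, 80% of probes alike), the 6 with most probes, the 6 largest groups within 20 kb (ties by median lowest percentile, chosen after seeing the data) and 4 regions on each side of the border. Members and lists were chosen with earlier results of these data known. Alternatives were filtered probes, the mean of probes, normexp (limma 3.58.1, offset 50), loess, scaling, the deposited table, joining within 300 or 1000 bp, 5 probes and percentile 95. The region code was tested on simulated data. Python 3.11.15, scipy 1.17.1 and R 4.3.3 were used.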

Additional observations from a re-analysis of the deposited data

Results flagged for a closer look

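Values in data outside the main measurement were found at 2 places. On chromosome X, which the rule leaves out, 14 of 390 regions (3.59%, Wilson 95% interval 2.15% to 5.93%) reached the autosomal percentile 90 value on all 3 arrays, with medians of 1.94 on the 7-week array, 2.37 on the untreated 23-week array and 1.39 on the DSS array, against 7.5% of autosomal regions. Of 442 probes without a position, 13 (2.94%, 1.73% to 4.97%) were in the top 10% of autosomal probes on all 3 arrays, against 7.49% of autosomal probes and 0 of 1036 negative control spots, whose Wilson 95% interval reaches 0.369%.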

How the results depend on the processing

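Over the alternatives listed with the methods, 30 values stayed close to the reported one, 26 moved and 4 changed sign. The number of members stayed within 1.5 times of 1029 except at percentile 95 (460), and between 1117 and 1164 when 1 array was left out of the rule, an alternative chosen after seeing the data. The difference between untreated arrays (0.28) was 0.24 with filtered probes, 0.31 with the mean, 0.33 in the deposited table and 0.24 at percentile 95. It changed sign with normexp (-0.088), loess (-0.21) and scaling (-0.26). DSS minus untreated at 23 weeks (-0.83) was -0.76 with filtered probes, -0.86 with the mean, -0.52 with normexp, -0.061 with loess, -0.89 in the deposited table and 0.14, the opposite sign, with scaling. DSS minus 7 weeks (-0.54) was -0.52 with filtered probes, -0.60 with normexp, -0.28 with loess, -0.13 with scaling, -0.56 in the deposited table and -0.60 at percentile 95. The 169 members 2-fold lower after DSS became 94 with filtered probes, 4 with normexp, 1 with loess, 0 with scaling, 278 in the deposited table and 81 at percentile 95. The 38.3% of members with another within 20 kb became 41.6% and 35.3% with joining within 300 and 1000 bp, 28.5% with 5 probes, 28.5% at percentile 95, 38.6% to 39.3% when 1 array was left out and 32.5% without groups of 4 or more members. Fewer regions can count as neighbours with 5 probes or percentile 95. Leaving out groups of 4 or more removes only members that have another within 20 kb, so that share had to fall. Joining within 300 or 1000 bp split the probes into 14271 or 13440 regions, against 13729. How far this moved the share was not tested. No paired analysis was possible because each group has 1 array. Probes whose immunoprecipitate scored not well above background lay almost wholly outside the members. The rule favours this, since it chose members by a high ratio of immunoprecipitate over input.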
